A study of Saccharomyces cerevisiae with 14 samples.

Results

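The genes described here are the 67 members of the table whose standard yeast name begins with MRPL, MRPS, MRP or RSM followed by a digit, out of 7122 genes in all. They are named as genes of the mitochondrial ribosome of Saccharomyces cerevisiae. By the RefSeq annotation, 38 encode proteins of the large (54S) subunit and 27 proteins of the small (37S) subunit. The other 2, MRP8 and RSM22, are placed in no subunit: RSM22 is described as a tRNA methyltransferase, and the annotation gives MRP8 no function. The members lie on 14 chromosomes, most often on IV (12 genes), XIV (10) and XI (8). All 67 had a mean normalized count of at least 5 and entered the tests.

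Mitochondria carry their own ribosome, which translates the few proteins encoded in the mitochondrial genome, most of them core subunits of the respiratory chain. Nearly all of its proteins are encoded in the nucleus, made by cytosolic ribosomes and imported. In yeast their mRNAs are the best known targets of Puf3, an RNA-binding protein that recognises a short element downstream of the stop codon and is known to promote mRNA decay in glucose medium. In the protein names used below, u marks a family found in all domains of life, b a family shared with bacteria and m a family of mitochondrial ribosomes.

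RNASeq was available for the 4 chaperone-enriched strains (ChES), made in the yeast strain Y258 and each carrying an overexpression (oe) plasmid for 1 chaperone gene. These were 3 libraries labelled oe SSC1 (mitochondrial HSP70), 3 of oe LHS1 (an HSP70 family protein of the endoplasmic reticulum), 2 of oe EGD2 (a subunit of NAC, which meets nascent chains at the ribosome) and 3 of oe TCP1 (a subunit of the cytosolic chaperonin). The labels give exponential cultures in -URA medium with 2% glucose, whereas the methods of the study describe induction in galactose and growth past the diauxic shift. The 3 control samples named by the labels were not analysed here, so every strain was contrasted with the average of the remaining 3, and no value below is a change from a control. Nothing in the labels ties the replicates to separate cultures, so p-values measure the spread between these libraries, although the methods speak of biological triplicates.

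Depth ran from 10127206 to 20286329 reads a library, lowest in oe TCP1 replicate 3. The overexpressed gene checked the labels in 3 of 4 strains. LHS1 had normalized counts of 23647, 56679 and 60337 in oe LHS1 against 1344 to 2211 elsewhere, TCP1 had 22042, 47002 and 26906 in oe TCP1 against 1726 to 2577, and EGD2 had 24039 and 17746 in oe EGD2 against 6127 to 16374. SSC1 itself had 30045, 82518 and 11336 under its own label, against 14940 to 32390 in the others, so it exceeded all others in only 1 of the 3. HIP1, a histidine permease gene named after its values were seen, had 31570, 46307 and 27237 in the same libraries and 1564 to 3620 in the rest. Directions given for these libraries therefore refer to a label that the targeted gene did not bear out in 2 of 3 libraries.

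The feature that the members shared most completely lay in their sequence and was not used to choose them. The Puf3 element, spelled TGTANATA with N for any base, was searched on the coding strand in the 250 bases after each stop codon. It was present in 65 of 67 members (97.0%), namely in all 38 large subunit genes and all 27 small subunit genes, and in 910 of all 6007 nuclear protein-coding genes (15.1%). The 2 members without it were MRP8 and RSM22, the same 2 that the annotation places in no subunit. On the opposite strand the same letters stood in 20.9% of members and 14.5% of all genes. Windows of 150 and of 500 bases, tried after seeing the data, again gave 65 members, beside 12.55% and 18.95% of all genes. Neither window could give fewer members, since each first element began at most 139 bases after the stop codon. These are matches of letters in the reference genome, and binding of Puf3 was not measured.

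The elements of 12 members named in the results below are printed here, chosen so that each of the 3 frequent letters at the free position has 4 lines with both subunits among them, because they show what all the subunit genes have in common. Each is given 5′ to 3′ on the coding strand with the element in capitals, with 8 bases on either side, from the RefSeq R64 assembly, and with the distance of its first base from the stop codon. The first 4 lines hold A at the free position of the element, the next 4 hold T and the next 4 hold C. The last line, MRPL3, was added because it is the 1 member whose first element holds G.
MRP7 (bL27m, chrXIV:621246-621269, minus strand, base 52): agaatgccTGTAAATAttactatt
MRPL22 (uL22m, chrXIV:303535-303558, minus strand, base 136): tgtgattcTGTAAATAacaactag
MRPS12 (uS12m, chrXIV:694272-694295, minus strand, base 74): caacctttTGTAAATAgcaatgac
MRP51 (bS1m, chrXVI:327700-327723, plus strand, base 46): cagagttcTGTAAATAaataaaga
MRPL24 (bL28m, chrXIII:650859-650882, plus strand, base 55): ttttccccTGTATATAaaaaagca
MRPL31 (mL60, chrXI:185228-185251, minus strand, base 43): atttcatcTGTATATAgtttaatc
MRPL38 (uL14m, chrXI:131138-131161, plus strand, base 96): taaccaccTGTATATAttgcttaa
MRP10 (mS37, chrIV:372583-372606, plus strand, base 56): catggcctTGTATATAcaaattaa
MRPL13 (mL50, chrXI:450361-450384, minus strand, base 47): taatatccTGTACATAtatatact
MRPL9 (uL3m, chrVII:936026-936049, minus strand, base 33): tacaatcaTGTACATAcatcaata
RSM7 (uS7m, chrX:638195-638218, minus strand, base 22): aacttgccTGTACATAaacacatt
MRP4 (uS2m, chrVIII:100432-100455, plus strand, base 37): cctaaactTGTACATAtgcccata
MRPL3 (chrXIII:323057-323080, plus strand, base 18): tgccatttTGTAGATAgagaactc

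The first element of each of the 65 genes began 8 to 139 bases after the stop codon, with a median of 51, and 61 of the 65 began within 100 bases. Elsewhere the position varied more: in 836 other genes whose first element left at least 2 bases after the stop codon, it began at a median of 65 bases, and 67.7% lay within 100. The members used A at the free position in 32 genes, T in 20, C in 12 and G in 1, whereas T was the most frequent letter there in the other genes (422 of 836). C stood 2 bases before the element in 46 of 65 members (70.8%) and in 208 of 836 other genes (24.9%). Most members held 1 element (51 genes), 12 held 2 and 2 (MRPL19 and RSM19) held 3.

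The element was also frequent in lists of other genes around mitochondrial protein synthesis. It was present in 13 of 14 mitoribosomal protein genes that bear other names and 15 of 16 genes listed as mitochondrial tRNA synthetases. It was also present in 16 of 20 genes for translational activators and membrane insertion. The counts were 7 of 10 translation factor genes and 7 of 12 genes listed for mitoribosome assembly. By contrast, 7 of 36 nuclear genes for respiratory chain subunits (19.4%) and 8 of 137 cytosolic ribosomal protein genes (5.84%) held it. The exception among the 14 was PPE1, which encodes a methylesterase of protein phosphatase 2A. The tRNA synthetase list also holds the amidotransferase subunit genes HER2, PET112 and GTF1, and its only gene without the element was GTF1. The assembly list is mixed. It also holds PUF3 itself, RPO41 and MTF1 of mitochondrial transcription, and RPM2 of mitochondrial RNase P. Its genes without the element were MRM1, MTF1, MTG1, PUF3 and RPM2.

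**Figure D1:**
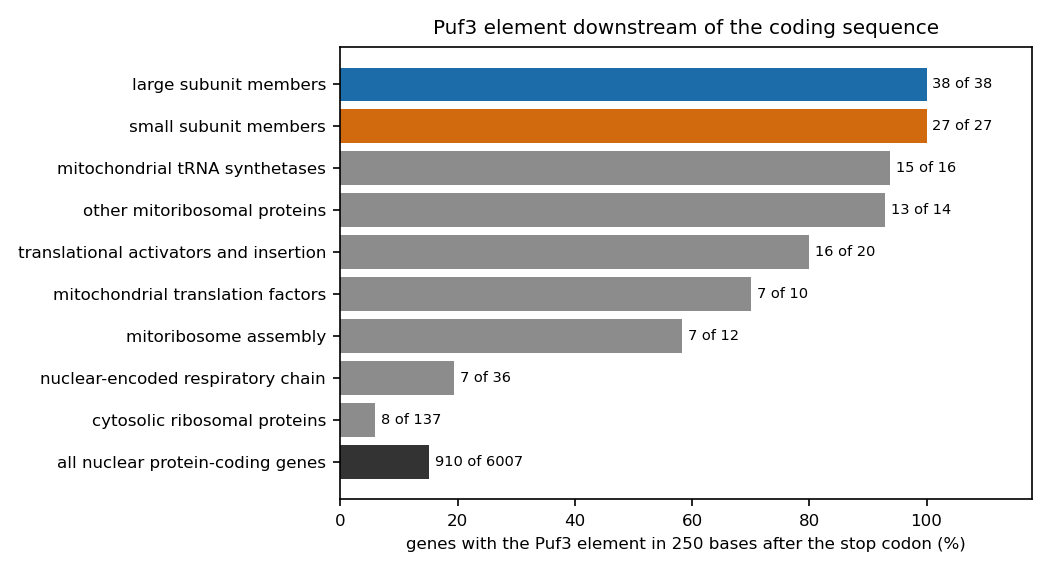
Share of genes with the Puf3 element in the 250 bases after the stop codon (horizontal axis, %), with the number of genes beside each bar. Both subunits are at 100%, and all nuclear protein-coding genes at 15.1%. The other lists around mitochondrial protein synthesis lie between 58.3% (the mixed assembly list) and 93.8% (the tRNA synthetase list).

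None of the 5 motifs searched in promoters, taken as 250 bases before to 50 after the start codon on both strands, was shared by the members to this extent. The letters TTACCCG, which the general factor Reb1 recognises, were found in 10 of 67 members (14.9%) and in 7.08% of all 6007 promoters. CCAAT, the core bound by the Hap2/3/4/5 complex of respiratory genes, was found in 41.8% of members and 43.3% of all. The cores of the PAC element (GATGAG) and the RRPE element (AAAAATTTT) of ribosome biogenesis genes stood in 16.4% and 7.46% of members against 20.4% and 6.99% of all, and 1 fixed form of the Rap1 site in 0 members and 0.216% of all promoters. The Rap1 letters also stood in 0 of 137 promoters of cytosolic ribosomal protein genes, so their absence does not set the members apart. A site need not match these letters exactly.

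Together the members took 0.375 to 0.470% of the normalized counts of a library. Per kilobase (kb) of coding length, which allows genes to be compared, the large subunit genes had mean levels of 128 to 2225 normalized counts with a median of 1050, and the small subunit genes 650 to 3456 with a median of 1252. The median level per kb was lower for the large than for the small subunit in 11 of 11 libraries, at 863 to 1397 for the large and 1022 to 1446 for the small subunit. The 2 ranges of genes overlap between 650 and 2225, and no test was made, since genes are not replicates.

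The highest level per kb belonged to MRP8, at 6972, followed by 3 small subunit genes. These were MRPS12 (uS12m, a protein of the decoding centre) at 3456, MRP10 (mS37, a protein with paired cysteines) at 2983 and MRPS16 (bS16m) at 2321. The lowest were MRPL38 (uL14m, on the face that meets the small subunit) at 128, MRPL51 (mL43) at 285, RSM22 at 566 and MRPL9 (uL3m, a core protein of the large subunit) at 640. MRPL38 had normalized counts of 38 to 80 a library. MRPL51 overlaps the annotated gene YPR099C, and its counts were made without regard to strand, so reads from the shared stretch cannot be assigned to either gene and, under the default mode of the counter, are left uncounted. Whether its level is low for this reason was not tested. The same limit holds for MRPL19 with YNL184C and MRP4 with YHL005C. Overlaps were looked for only among RefSeq genes, to which 6045 of the 7122 genes counted matched. Other members, MRPL38 among them, may therefore share reads with a gene that was not examined.

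**Figure D2:**
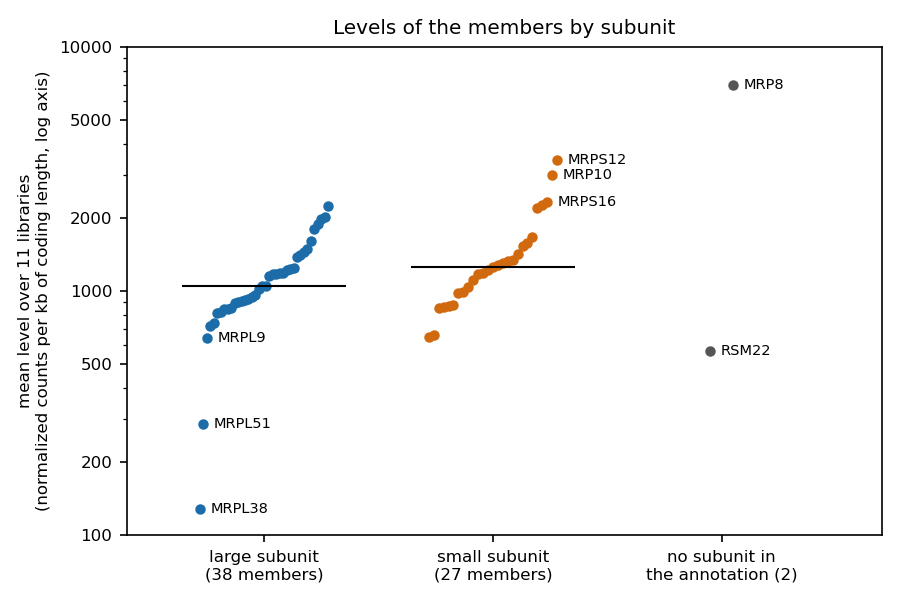
Mean normalized count per kb of coding length over 11 libraries (vertical log axis) for each member, arranged by subunit and sorted within it; horizontal lines are medians over genes, 1050 for the large and 1252 for the small subunit. MRP8 at 6972 and MRPL38 at 128 lie at the 2 ends.

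Members varied little between libraries. The range of a member, meaning its highest minus its lowest log2 value over 11 libraries, had a median of 0.97, and 39 of 67 (58.2%) stayed within a range of 1, that is, within a 2-fold span. Over all 6592 genes tested the median range was 1.39 and 28.4% stayed within 1. Among the 5347 tested genes whose mean fell between the lowest and highest member means, these were 1.24 and 34.0%. Both subunits had similar median ranges, 0.97 in the large and 0.93 in the small. Cytosolic ribosomal protein genes had a median range of 1.90. Some related lists were as narrow as the members, with 0.85 in the other mitoribosomal protein genes and 0.84 in the translational activators. The tRNA synthetase list had 1.03. Wider were the translation factors (1.17), respiratory chain genes (1.17), the assembly list (1.19) and mitochondrially encoded genes (2.16).

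The narrowest ranges were those of MRP51 (bS1m, needed for translation of mitochondrial mRNAs), at 1203 to 1496 normalized counts, and MRPS5 (uS5m), at 699 to 871. MRPL16 (uL16m) followed with 945 to 1221 and MRPS18 (uS11m) with 915 to 1204. Each of these 4 genes thus varied by at most 1.32-fold over all 4 strains. The widest range was that of MRP8, from 1648 to 8348 (5.07-fold). MRP7, whose protein bL27m lies near the peptidyl transferase centre, had 4211 in the library labelled oe SSC1 replicate 2 and 1488 to 2472 in the other 10. The other wide ranges were those of MRPL13 (mL50), at 548 to 1386, and MRP10, at 509 to 1252.

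**Figure D3:**
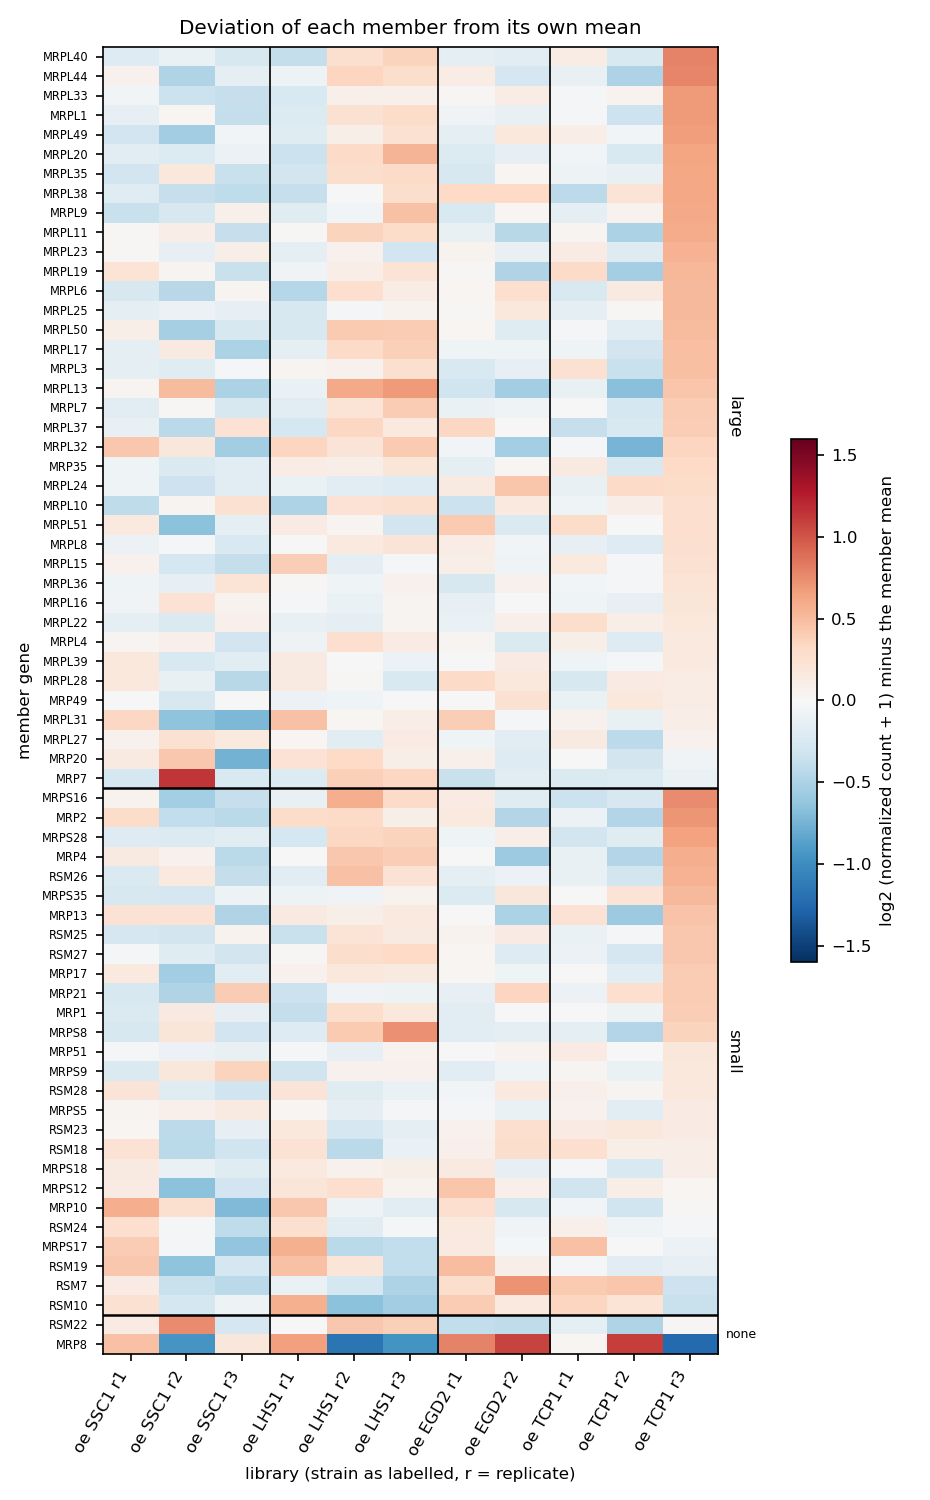
Deviation of each member (rows, large subunit above, small subunit below, MRP8 and RSM22 last) from its own mean over 11 libraries (columns), as log2 of the normalized count plus 1 (colour). The column of oe TCP1 replicate 3 is above the mean for 59 of 67 genes, and MRP8 has the strongest colours.

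Summed over the 67 members, levels were close in most libraries. The sums were 58616 and 58794 normalized counts in oe EGD2, 58413, 58024 and 58761 in oe LHS1, 56232, 55955 and 65225 in oe TCP1, and 57898, 54089 and 49336 under the oe SSC1 label. The highest sum was 1.32-fold the lowest, and these 2 libraries belong to different strains while their replicates lie between them. Strain means were 53774 ± 4290 under the oe SSC1 label, 58400 ± 369 for oe LHS1 and 59137 ± 5274 for oe TCP1 (SD, n = 3 each) and 58705 ± 126 for oe EGD2 (SD, n = 2). MRP8 alone holds a large and variable part of this sum. Without MRP8 and RSM22, a choice made after seeing the data, the sums ran from 44080 to 62533 (1.42-fold). The strain means were then 53863 ± 2264 in oe LHS1, 53575 ± 8071 in oe TCP1 and 48586 ± 3937 under the oe SSC1 label (SD, n = 3 each) and 50453 ± 913 in oe EGD2 (SD, n = 2), so the close agreement of the oe LHS1 and of the oe EGD2 sums was looser without these 2 genes.

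In most strains the balance between the subunits varied more between libraries than the strain means differed. Summed large subunit counts divided by summed small subunit counts gave 0.987 and 1.04 in oe EGD2, 0.977, 1.18 and 1.22 in oe LHS1, 1.05, 1.02 and 1.17 in oe TCP1, and 0.980, 1.28 and 1.12 under the oe SSC1 label. The ratio averaged 1.09 ± 0.11 over all libraries (SD, n = 11). It sums 38 genes over 27, and the same ratio taken from the median gene of each subunit was 0.705. Neither ratio allows for coding length, whose median was 616.5 bases in large and 744 in small subunit genes. The ratios of the 4 strains overlap. Within oe LHS1 and within the libraries labelled oe SSC1 they differ more than the strain means do, which lie between 1.01 and 1.13. Within oe EGD2 they differ less. The lowest ratios, 0.977, 0.980 and 0.987, were those of replicate 1 of oe LHS1, of the oe SSC1 label and of oe EGD2. In oe TCP1, replicate 1 was above replicate 2 (1.05 and 1.02). The labels tie no replicate number to a batch. In the libraries labelled oe SSC1, MRP7 contributed 4211 of 28206 large subunit counts where the ratio was 1.28.

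The library that stood apart was oe TCP1 replicate 3, which was also the shallowest. In it, 59 of 67 members were above their own mean (36 of 38 large and 22 of 27 small subunit genes), and 34 of 67 had their highest value of all 11 libraries. Over all tested genes, 23.5% had their highest and 20.8% their lowest value in that library. The median deviation was 0.40 for the large and 0.18 for the small subunit (log2). Cytosolic ribosomal protein genes had a median deviation of 1.05 there over 137 genes, and the part of depth or of these genes in the members' values was not tested. At the other end, only 14 of 67 members exceeded their own mean in the library labelled oe SSC1 replicate 3, with medians of -0.21 for the large and -0.30 for the small subunit.

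**Figure D4:**
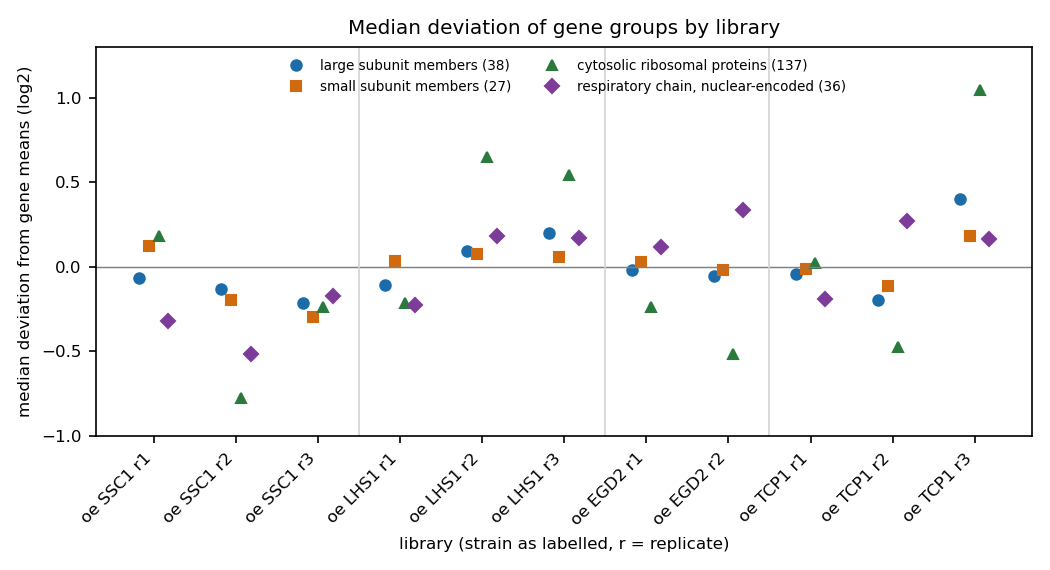
Median log2 deviation from the gene means (vertical axis) in each of 11 libraries for large subunit members, small subunit members, cytosolic ribosomal protein genes and nuclear-encoded respiratory chain genes. Both subunits stay between -0.30 and 0.40, whereas cytosolic ribosomal protein genes span -0.77 to 1.05.

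Across the 11 libraries, the median deviation of the subunit members followed that of the cytosolic ribosomal protein genes (Pearson's r = 0.876, given as a description, since the libraries share one normalization and 4 strains). Single genes followed it less closely, with a median r of 0.59 in the large subunit (35 of 38 positive) and 0.39 in the small (21 of 27 positive). Pairs of members had a median r of 0.35 within the large subunit, 0.21 within the small and 0.27 between them. Pairs of cytosolic ribosomal protein genes had a median r of 0.92, pairs of respiratory chain genes 0.58 and pairs of all tested genes 0.00. The mitochondrial ribosomal protein genes had lower pairwise correlations than either of those groups.

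No member was called different among the 4 strains. The limma F test called 0 members at an adjusted p of 0.05, where it called 3 of 6592 genes in all (0.0455%), and 0 members had an unadjusted p under 0.05, where 0.561% of all genes did. edgeR called 0 members (0.0455% of all genes), with 0 at an unadjusted p under 0.05 (2.08% of all), and DESeq2 called 0 (0.0457%), with 2 before adjustment (4.31%). Differences between strain means made up a median of 26.2% of a member's variance over libraries and 26.5% of that of all tested genes. This share is not corrected for the number of strains and lies above 0 without any effect of strain. It is therefore no measure of such an effect. The spread within a strain was smaller for members, with a median SD of 0.31 (log2) against 0.45 for all tested genes. It was 0.40 for tested genes with means between the lowest and highest member means. Respiratory chain genes had 0.32 and cytosolic ribosomal protein genes 0.58.

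The 4 members with the smallest F p were RSM7, MRPL24, RSM22 and MRPS12, all with a limma adjusted p of 0.964. MRPL24 (bL28m) had 690 and 842 normalized counts in oe EGD2, 573, 766 and 764 in oe TCP1, 579, 548 and 540 in oe LHS1, and 593, 492 and 547 under the oe SSC1 label. Its oe EGD2 libraries were above all 6 libraries of the last 2 and overlapped those of oe TCP1. Differences between strain means made up 69.0% of the variance of MRPL24, the largest share among members, at an unadjusted limma F p of 0.112.

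**Figure D5:**
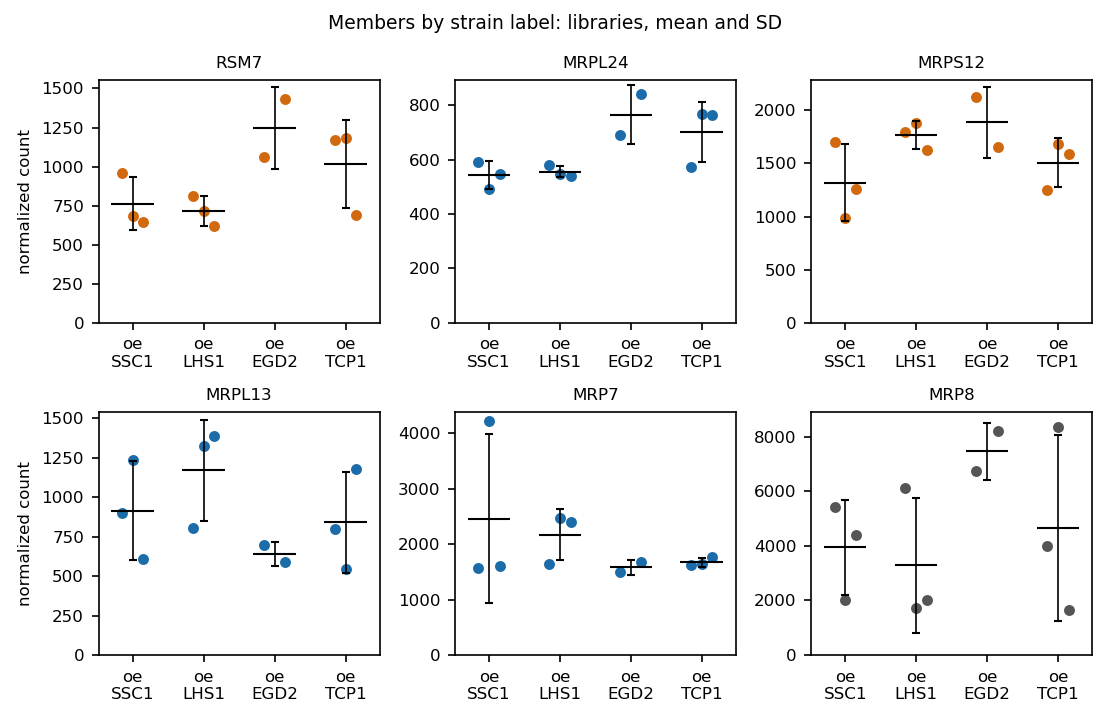
Normalized counts (vertical axes, from 0) of 6 members in each library, by strain label; lines are means and bars SD (n = 3, oe EGD2 n = 2). RSM7 is highest in oe EGD2 at 1064 and 1432 but overlaps oe TCP1, and MRP8 spans 1648 to 8348 within oe TCP1 alone.

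In the libraries labelled oe SSC1 the members tended to lie below the other strains, without any call and not in replicate 1. The median deviation of members from their own means was 0.01 in replicate 1, where 34 of 67 were above. It was -0.19 in replicate 2 and -0.25 in replicate 3. limma called 0 members against 0.0152% of all genes tested, and 0 had an unadjusted p under 0.05, against 0.895% of all. edgeR also called 0 (0.0152% of all), with 0 before adjustment (1.82%), and DESeq2 called 0 (0.0609%), with 0 before adjustment (2.22%). The log2 difference was negative for 56 of 67 members, 32 of 38 large and 23 of 27 small, with a median of -0.17 (large -0.18, small -0.16) beside 0.01 over all genes tested. The median standard error of a member's difference was 0.22. Of all tested genes, 48.3% were lower. The median difference was -0.11 with 49 members lower without replicate 3 of this label, and -0.19 with 58 lower without its replicate 1. It was -0.12 with 52 lower without oe TCP1 replicate 3, and -0.11 with 53 lower when libraries were scaled to their totals.

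MRPL31 (mL60) was the large subunit gene with the largest negative difference, at 774, 395 and 374 normalized counts in the libraries labelled oe SSC1, against 566 to 848 in the others (log2 -0.47, SE 0.24, limma adjusted p = 0.99991). Replicates 2 and 3 lay below every other library and replicate 1 among the highest. MRPS12 was the small subunit gene, at 1707, 989 and 1261, against 1251 to 2124 (log2 -0.41, SE 0.20). The largest positive difference of the large subunit was that of MRP7 (0.30, SE 0.30), for which replicate 2 alone was above the other strains, and that of the small subunit was MRPS9 (uS9m) at 0.15. RSM22, in neither subunit, had 0.32 (SE 0.23).

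In oe LHS1 the members scattered around the other strains. limma called 0 members against 0.0152% of all genes, and 0 had an unadjusted p under 0.05 against 3.69% of all. edgeR called 0 (0.0152% of all), with 0 before adjustment (5.17%), and DESeq2 called 0 (0.0152%), with 0 before adjustment (7.59%). The median difference was 0.08 (large 0.12, small 0.04), with 43 of 67 higher, beside 51.2% of all genes tested. With 1 library left out the median ran from 0.05 (without oe TCP1 replicate 2) to 0.18 (without oe LHS1 replicate 1), and 39 to 48 members were higher. MRPL13 had the largest positive difference, at 803, 1323 and 1386 normalized counts in oe LHS1, against 548 to 1236 in the other strains (log2 0.57, SE 0.30, limma adjusted p = 0.677). Replicates 2 and 3 were the highest of all libraries and replicate 1 was near the middle. MRPS8 (uS8m) was the small subunit gene, at 347, 533 and 663, against 289 to 510 (0.44, SE 0.25). Negative differences were led by RSM7 (-0.45, SE 0.23) in the small and MRPL24 (-0.25, SE 0.16) in the large subunit.

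In oe EGD2 a single member reached an unadjusted p under 0.05. limma called 0 members and 0% of all genes after adjustment, and edgeR and DESeq2 called 0 members (0% and 0.0305% of all). Before adjustment each of the 3 tools had 1 member, beside 2.94% of all genes by limma, 3.52% by edgeR and 7.69% by DESeq2. By limma this was RSM7, whose protein uS7m is in the head of the small subunit. It had 1064 and 1432 normalized counts in oe EGD2, against 1169, 1185 and 692 in oe TCP1, 814, 715 and 620 in oe LHS1, and 958, 684 and 648 under the oe SSC1 label (log2 0.61, SE 0.26, limma adjusted p = 0.707). Replicate 1 of oe EGD2 was below 2 oe TCP1 libraries, so the strains overlapped.

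The median difference of members in oe EGD2 was -0.04 (large -0.08, small 0.01), with 30 of 67 higher, beside 49.2% of all genes tested, and the median standard error was 0.26 with 2 libraries. The sign of this median was not stable: it was 0.010 without oe EGD2 replicate 2 and 0.021 without oe TCP1 replicate 3, and -0.13 with 18 of 67 higher when libraries were scaled to their totals. MRPL13 was lowest among large subunit genes at 696 and 587, against 548 to 1386 (-0.54, SE 0.34), and MRP4 (uS2m) among small subunit genes at 1625 and 1087, against 1176 to 2441 (-0.36, SE 0.30). MRPL38 had the largest positive difference of the large subunit, at 65 in both oe EGD2 libraries, against 38 to 80 elsewhere (0.39, SE 0.32).

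In oe TCP1 the members' direction rested on 1 library. limma called 0 members against 0.0152% of all genes, with 0 at an unadjusted p under 0.05 against 0.364% of all. edgeR called 0 (0.0152% of all), with 0 before adjustment (0.485%), and DESeq2 called 0 (0.0457%), with 1 before adjustment (1.14%). With all libraries, 51 of 67 members were higher, beside 50.3% of all genes tested, and the median was 0.08 (large 0.12, small 0.07). Without replicate 3, 23 of 67 were higher, beside 46.4% of all, and the median was -0.04. Without replicate 2, 57 of 67 were higher, beside 46.9% of all, and the median was 0.18. MRPS35 (mS45) had 876, 1018 and 1260 normalized counts in oe TCP1, against 728 to 991 in the other strains (log2 0.33, SE 0.17, limma adjusted p = 0.99983). MRPL49 (bL21m) had 522, 467 and 770, against 329 to 572 (0.32, SE 0.21). Negative differences were small, with MRP7 at -0.22 (SE 0.30) and RSM19 (uS19m) at -0.18 (SE 0.26).

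Few single members were separated by strain. MRPL28 (mL40) was the 1 member higher in both oe EGD2 libraries (786 and 713) than in all others (463 to 709), where 1.91% of all genes tested showed this. MRPL22 (uL22m, which lines the exit tunnel) was the 1 member higher in all 3 oe TCP1 libraries (1382, 1223 and 1284) than in all others (968 to 1209), where 0.0455% of all genes did. Both were named after their values were seen. Their log2 differences were 0.30 (SE 0.21, limma adjusted p = 0.708) and 0.25 (SE 0.15, adjusted p = 0.99983). In the other directions there were 0 such members: above in the libraries labelled oe SSC1 (0.182% of all genes) and oe LHS1 (0.0455%), and below in those labelled oe SSC1 (0.197%), oe LHS1 (0.137%), oe EGD2 (2.4%) and oe TCP1 (0.121%).

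The large and small subunits were also compared within each strain contrast. The median difference of the large minus that of the small subunit was -0.09 in oe EGD2, 0.07 in oe LHS1, 0.04 in oe TCP1 and -0.02 under the oe SSC1 label (log2). With 1 library left out these ran from -0.11 to -0.020 in oe EGD2, from 0.011 to 0.15 in oe LHS1, from -4.9e-05 (without oe TCP1 replicate 3) to 0.048 in oe TCP1 and from -0.084 to 0.063 under the oe SSC1 label, so the sign for that label depended on single libraries. They are descriptions over 38 and 27 genes, and no test was made.

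The 2 members outside the subunits both lie on chromosome XI, MRP8 (YKL142W) at chrXI:178515-179174 and RSM22 (YKL155C) at chrXI:159456-161342. MRP8 had 6733 and 8207 normalized counts in oe EGD2, 6126, 1723 and 2009 in oe LHS1, 3987, 8348 and 1648 in oe TCP1, and 5406, 2025 and 4403 under the oe SSC1 label. It was high in both oe EGD2 libraries and differed by over 3-fold between replicates of oe LHS1 and by 5.07-fold between replicates of oe TCP1. The strain comparison for oe EGD2 gave a log2 difference of 1.14 (SE 0.63, limma adjusted p = 0.707). RSM22 had 784 and 780 in oe EGD2, 1024, 1387 and 1342 in oe LHS1, 925, 735 and 1044 in oe TCP1, and 1131, 1747 and 852 under the oe SSC1 label. Its difference in oe EGD2 was -0.49 (SE 0.27, adjusted p = 0.707).

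Over the 11 libraries MRP8 ran opposite to most of the large subunit, with a median r of -0.48 (30 of 38 negative, lowest -0.91 for MRPL13) as a description. In the small subunit the median was -0.21 (16 of 27 negative), and the genes were divided. RSM10 (uS10m, named after its values were seen) had the highest r, at 0.85, and RSM7 had 0.78. RSM22 had an r of -0.79 with MRP8. For pairs of all tested genes the 5th and 95th percentiles of r were -0.78 and 0.79, so values of this size were not rare.

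Other genes of the same pathway were compared in the same fits. limma, edgeR and DESeq2 called 0 of the 14 other mitoribosomal protein genes and 10 translation factors in any comparison. They also called 0 of the 16 genes of the tRNA synthetase list, 20 translational activators and 12 genes of the assembly list. Likewise, 0 were called of 36 respiratory chain genes, 6 mitochondrially encoded genes and 137 cytosolic ribosomal protein genes. The 14 mitoribosomal genes with other names had the same extremes as the members, a median deviation of -0.24 in the library labelled oe SSC1 replicate 3 and 0.44 in oe TCP1 replicate 3. The 16 genes of the tRNA synthetase list had their highest median deviation, 0.32, in the library labelled oe SSC1 replicate 2. Their lowest, -0.24, was in oe TCP1 replicate 3, where the members had their highest. PUF3 itself had 545 to 1904 normalized counts, highest in the library labelled oe SSC1 replicate 2 and lowest in oe TCP1 replicate 3. It was almost as low, at 552, in the library labelled oe SSC1 replicate 3, where the members had their lowest median deviation. A relation of PUF3 to the members' levels was not tested.

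The listed nuclear-encoded respiratory chain genes were lower in the libraries labelled oe SSC1 for 35 of 36 genes, with a median log2 difference of -0.47. Of the 36, 11 had an unadjusted limma p under 0.05, against 0.895% of all genes tested, and 0 passed adjustment. edgeR gave 11 and DESeq2 15 before adjustment, and 0 after it. The members' median there was -0.17. In oe EGD2, 32 of 36 were higher with a median of 0.25, where the members' median was -0.04. Galactose genes, listed because the labels and the methods differ on the carbon source, had 0 of 6 calls, and GAL7 ran from 42.0 to 417 normalized counts.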

How the data were processed

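RNASeq of 11 libraries of 4 ChES was analysed. The authors aligned 50-base single-end reads to sacCer3 with STAR 2.3.0e and counted them with HTSeq 0.6.0 (minimum alignment quality 10, strand not used). They removed outlier replicates by principal component analysis and deposited a table of signal per gene, namely counts divided by DESeq2 size factors (their DESeq2 version is not given in the sources used here). Whole reads were recovered within 0.01 for 100% of values in each library. Lines emptied for this work (4 genes) are not reported.

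Values plus a pseudocount of 1 were log2-transformed and tested with limma 3.58.1 (R 4.3.3), letting the variance depend on the mean, for the 6592 genes averaging 5 or more. Calls had a Benjamini-Hochberg adjusted p under 0.05. Fold changes on this scale understate changes of low genes. edgeR 4.0.16 and DESeq2 1.42.0 were run on the recovered reads. The tests were tried on simulated data. Members and lists were chosen with earlier results of these data known. Members named were those with the 4 highest and lowest levels per kb, the 4 widest and narrowest ranges, the 4 smallest F p and, per strain, the largest differences of each sign in each subunit. RPP1, a subunit of RNase P, was left out of the cytosolic ribosomal proteins. Annotation and sequences come from RefSeq R64, the assembly of sacCer3, to which 6045 of 7122 genes matched. Windows were not trimmed at neighbouring genes. A planned comparison of replicate 1 with replicates 2 and 3 is not given, because only 8 of 15 same-numbered pairs of libraries correlated over 0.1.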

Additional observations from a re-analysis of the deposited data

How the results depend on the processing

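The count of 0 members called held in all 5 comparisons with a pseudocount of 5, no filter, a mean of at least 50, scaling to library totals, TMM factors, edgeR, DESeq2, the replicate block and each library left out. The highest summed member level was 1.32-fold the lowest, 1.25-fold with library totals, 1.50-fold as a median over members, 1.42-fold over members annotated to a subunit, and 1.19 to 1.32-fold with 1 library left out (1.21 without the library labelled oe SSC1 replicate 3, 1.19 without oe TCP1 replicate 3). The ratio of large to small subunit was 1.09 from sums and 0.705 from medians of log2 values, both without allowing for coding length. Scaling to library totals moved the median of all genes to -0.10 in oe EGD2, 0.08 in oe LHS1, -0.04 in oe TCP1 and 0.06 under the oe SSC1 label, and the member medians to -0.13, 0.16 (55 of 67 higher), 0.03 (44 higher) and -0.11 in the same order. With 1 library left out, the oe EGD2 median ran from -0.093 to 0.021, positive without oe EGD2 replicate 2 or oe TCP1 replicate 3, and large minus small in oe EGD2 from -0.11 to -0.020. The cause was not tested.

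Same-numbered libraries correlated over 0.1 in 8 of 15 pairs (r from -0.58 to 0.64), and 8 of 11 libraries were closest to one of their own number. With the replicate number as a block, the oe EGD2 median was 0.0034 and large minus small -0.043, and no call changed.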
